A study of Mus musculus with 8 samples.

Results

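Cytosolic ribosomal proteins are the proteins that, with ribosomal RNA, build the large and small subunits of the ribosome of the cytoplasm. The genes were taken by name from the platform annotation: symbols that start with Rpl or Rps and a number, with their paralogues (Rpl22l1 and the like), Rplp0, Rplp2 and Rpsa, without ribosomal S6 kinases and named pseudogene models. Only genes with a probe set assigned to them alone were kept, which gave 49 of 18194 genes, 26 of the large and 23 of the small subunit. Of the 49, 46 passed the filter on dim probe sets and were tested, 24 of the large and 22 of the small subunit. Rps16, Rpl3l and Rpl39l were under the filter. A name alone does not make a gene a ribosomal protein gene: Rps4l, a relative of the X-linked Rps4x on chromosome 6, is listed by RefSeq as a transcribed pseudogene. The counts of members called lower in the main fit, and the median in control tumours, are given without it too. The other counts of the 46 tested members include it.

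RNA was measured on 8 Affymetrix mouse arrays in small-intestinal tissue of C57BL/6 mice on AIN-76 diet. All mice carried the Min allele of Apc, which makes them form intestinal tumours, and loxP sites on both copies of Spint1, the gene of the membrane-bound protease inhibitor HAI-1. Control mice had no Cre (Apc (Min/+)/Spint1 (flox/flox)), and deficient mice also carried Vil-Cre, a Cre gene under the villin promoter, which acts in the intestinal epithelium and leaves the other cells of the tissue with Spint1. Differences called HAI-1 loss below therefore cannot be told apart from an effect of Cre itself. The 4 groups, of 2 arrays each, were control mucosa outside tumours, deficient mucosa outside tumours, control tumours and deficient tumours. No label says whether arrays of a group came from different mice or whether mucosa and tumour came from the same ones, so p-values measure the spread between these samples only, and 2 arrays per group limit the precision of every value.

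Ribosomal protein mRNAs are among the most abundant of a cell, and their production is tied to growth. Many of them begin with a run of pyrimidines (C and T), the 5' terminal oligopyrimidine tract, through which the TOR pathway adjusts how much of each mRNA is translated. RNA polymerase I transcribes the ribosomal RNA, and transcription of ribosomal RNA and of ribosome assembly factors depends on Myc. In the intestine, ribosome production is highest in the dividing cells of the crypt and declines as cells differentiate.

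RefSeq start sites (mouse build GRCm38.p6) were found for 43 of the 49 members, and a set of them is shown because the run of pyrimidines at the start is the feature through which translation of these mRNAs is known to be adjusted. Rpl7, Rpl8, Rps14, Rps20, Rps29 and Rps4l had no entry. Each line below gives the 40 bases before the RefSeq start and the 30 from it on, 5' to 3' on the gene's strand, with the longest run of C and T in capitals, or the first of them where 2 are equally long, as in Rps27l. Rps27l has 2 RefSeq starts, and the line shows the one upstream. The first 6 are members that were called higher in control tumours, and Rpl27a, Rps27 and Rps27l are members that were not. They were chosen after their values were seen.
Rpl22l1 (chr3:28805468-28805537, plus strand): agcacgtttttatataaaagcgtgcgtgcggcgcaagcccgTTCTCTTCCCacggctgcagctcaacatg
Rps6 (chr4:86857338-86857407, minus strand): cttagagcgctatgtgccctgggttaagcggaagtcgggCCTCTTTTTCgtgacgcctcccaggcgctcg
Rpl35 (chr2:39005102-39005171, minus strand): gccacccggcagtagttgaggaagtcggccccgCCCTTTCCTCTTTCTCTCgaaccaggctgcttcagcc
Rpl11 (chr4:136053364-136053433, minus strand): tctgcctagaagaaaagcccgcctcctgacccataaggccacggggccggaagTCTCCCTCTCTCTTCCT
Rpl14 (chr9:120571477-120571546, plus strand): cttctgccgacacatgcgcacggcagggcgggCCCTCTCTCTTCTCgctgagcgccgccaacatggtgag
Rpl37 (chr15:5116573-5116642, plus strand): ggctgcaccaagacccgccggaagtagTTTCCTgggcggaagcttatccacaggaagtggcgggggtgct
Rpl27a (chr7:109519155-109519224, plus strand): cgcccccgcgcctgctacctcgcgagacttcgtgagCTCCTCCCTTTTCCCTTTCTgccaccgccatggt
Rps27 (chr3:90213619-90213688, minus strand): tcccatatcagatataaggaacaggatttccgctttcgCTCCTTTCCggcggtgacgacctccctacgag
Rps27l (chr9:66946046-66946115, plus strand): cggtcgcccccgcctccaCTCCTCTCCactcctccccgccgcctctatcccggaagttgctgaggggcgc

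Counting the start as position 1 and the base before it as position -1, the run of Rps6 spans the start, with 10 pyrimidines from position -1. That of Rpl35 has 18 from position -7, that of Rpl14 has 14 from position -8 and that of Rpl22l1 has 10 from position 2. The longest run in the window of Rpl37 has 6 from position -13, although Rpl37 was called higher, and that of Rpl27a has 20 from position -4, although Rpl27a was not. The run of Rps27l begins at position -22 and, like that of Rpl37, ends before the start, and that of Rpl11 begins at position 14. A marked run is the longest of its window and need not be the tract at the start of the mRNA. In these lines the length of the longest run did not separate called from uncalled members. Within 25 bases either side of the start, 23 of 43 members (53.5%) had a run of at least 8 pyrimidines, against 23.1% of the 10219 tested genes with a promoter entry, and 15 (34.9%) had a run of at least 10, against 11.6%. In the 300 bases from 250 before to 50 after the start, searched on both strands, CCGGAAG, the core of many ETS factor sites, was found in 21 members (48.8%) and in 18.8% of tested genes. AAGATGG, which occurs in YY1 sites, was found in 8 members (18.6%) against 8.07%. The E-box CACGTG, bound by Myc and Max among others, was found in 4 members (9.3%) against 11.4%, GGGCGG, of Sp1 sites, in 25 (58.1%) against 66.6%, and TATAAA in 6 (14.0%) against 9.62%. These are matches of letters and show no binding.

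Facts of the whole series bear on all members. Spint1, the targeted gene, had a log2 signal of 12.25 to 12.46 in deficient and 12.87 to 13.00 in control mucosa, and 11.76 to 11.84 in deficient and 12.75 to 13.06 in control tumours. It was lower in deficient samples of both tissues without overlap, and was not called by limma in either (adjusted p = 0.271 and 0.779). Between the 3' and 5' ends of Gapdh, the signal ratio was 25.9 on the second control tumour array and 0.803 to 1.77 elsewhere. Control probe sets for 18S ribosomal RNA read 14.60 (second control mucosa array) and 13.63 (second deficient mucosa array), and 7.61 to 10.07 on the remaining 6. Summed linear signals of 8 epithelial markers overlapped between all groups (160663 to 185683 in deficient and 165871 to 170829 in control mucosa, 162932 to 175672 in tumours), so the labelled intestinal tissue carried its defining markers everywhere.

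Every difference is on the log2 scale of the deposited signals, where 1 is a doubling. A gene was called where the Benjamini-Hochberg adjusted p of limma, over 13119 genes, was under 0.05, and ± gives the standard error of the fit with n = 2 arrays per group. The probe sets of 36 tested members had a mean signal of at least 12 log2, and those of 6 (Rpl12, Rpl14, Rpl27a, Rpl39, Rps25 and Rps27) had one under 10. A signal depends on the probes as well as on the mRNA, so signals of different genes are not ranked here.

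Ribosomal protein signals were lowest in control mucosa, intermediate in deficient mucosa and highest in tumours of either genotype. The median of the 46 tested members was 13.69 and 13.92 log2 on the control mucosa arrays, 14.16 and 14.32 in deficient mucosa, 14.55 and 14.74 in control tumours and 14.55 and 14.62 in deficient tumours. Both deficient mucosa arrays lay above both control mucosa arrays and below all 4 tumour arrays, and the tumour groups overlapped. Over all tested genes the medians were 8.65 to 8.74, 8.85 to 8.87, 9.01 to 9.16 and 9.14 to 9.17, a smaller spread in the same order of mucosa and tumour. In bulk tissue, a change in the share of cells that make much ribosome cannot be told apart from a change of RNA per cell.

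**Figure D1:**
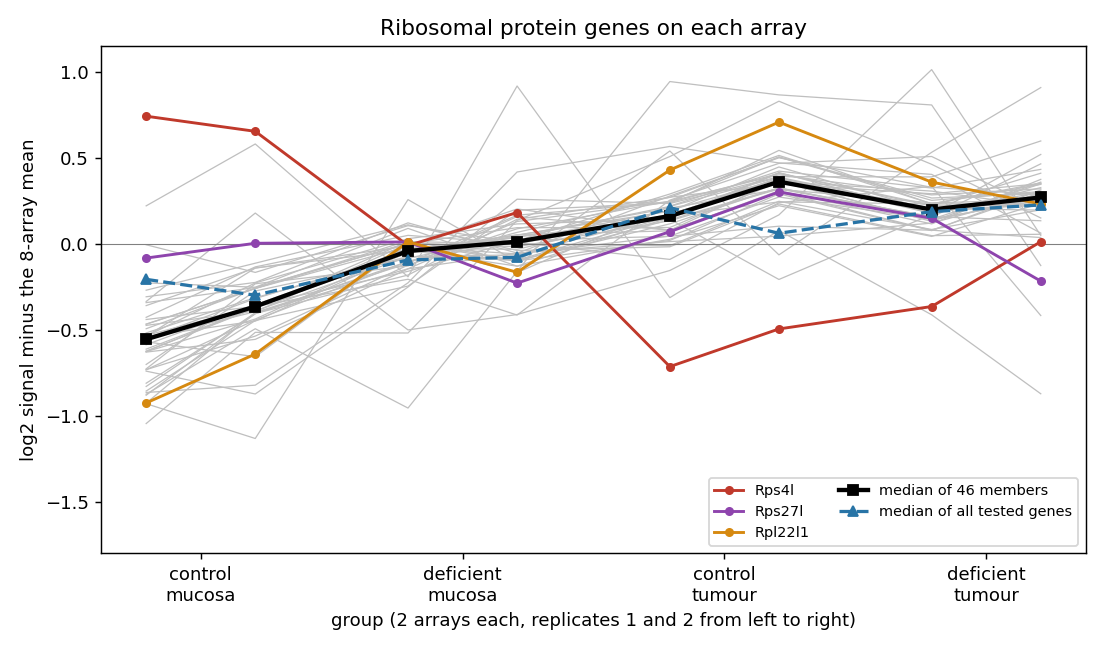
Log2 signal of each of the 46 tested ribosomal protein genes minus its own mean over the 8 arrays (y axis), by group (x axis, 2 arrays each). Grey lines join the values of 1 gene, the black line is the member median and the dashed blue line the median of all tested genes. Most members run upward from control mucosa to tumours, Rps4l (red) runs downward, and Rps27l (purple) stays within 0.53 log2.

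Tumours of control mice, set against control mucosa, showed the largest differences. Of 46 members, 20 were called higher (21.2% of all tested genes were) and 1, Rps4l, lower (7.64%), while 25 were not called. With the arrays centred on their medians the count called higher was 6 (Rpl12, Rpl14, Rpl22l1, Rpl37, Rps25 and Rps6), and without the filter on dim probe sets it was 5 (Rpl22, Rpl22l1, Rpl37, Rps15 and Rps6). The median member difference was 0.72 log2, or 1.65-fold, against 0.24 over all tested genes, and 44 of 46 differences were above 0 (61.2% of all tested genes). In 42 members both tumour arrays lay above both mucosa arrays (45.3% of all tested genes), and in Rpl27a and Rps4l both lay below (23.6%). Of the large subunit 13 of 24 were called higher, with a median of 0.77, and of the small subunit 7 of 22, with a median of 0.61. Whether the subunits differ was not tested.

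Among large subunit proteins, Rpl22l1, the paralogue of Rpl22, had signals of 12.57 and 12.85 in control mucosa and 13.92 and 14.20 in control tumours. Every tumour value exceeded every mucosa value by more than 1 log2, a rise of 1.35 ± 0.25 (2.55-fold, adjusted p = 0.00765). Rpl22 itself, which binds RNA of the Epstein-Barr virus as well as ribosomal RNA, went from 13.69 and 13.77 to 14.60 and 14.82. It rose by 0.98 ± 0.23 (adjusted p = 0.0174), while its other probe sets differed by 0.16 and 1.20. Rpl14 read 7.71 and 8.09 in control mucosa and 9.52 and 9.45 in control tumours, the largest rise among the probe sets used for the tested members (1.59 ± 0.40, 3.01-fold, adjusted p = 0.0229). Rpl37, a zinc-binding protein, read 10.60 and 10.64 against 12.03 and 11.94 (1.36 ± 0.29, adjusted p = 0.0129). In each of these 4 genes both tumour arrays were higher than both mucosa arrays on the probe set used.

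Rpl12, part of the base of the ribosomal stalk, read 7.62 and 7.42 in control mucosa and 9.09 and 8.48 in control tumours, and rose by 1.27 ± 0.30 (adjusted p = 0.0197). Rpl35, which lies at the exit of the peptide tunnel, rose by 1.03 ± 0.27, from 13.44 and 13.92 to 14.59 and 14.83. Rpl11, which with Rpl5 and the 5S ribosomal RNA can bind the p53 ligase Mdm2, rose by 0.99 ± 0.24, from 13.16 and 13.45 to 14.18 and 14.40. The other 6 large subunit genes called higher were Rpl4, Rpl6, Rpl8, Rpl10a, Rpl27 and Rpl37a, by 0.74 to 0.94 log2. The stalk proteins Rplp0 (0.69, adjusted p = 0.0615) and Rplp2 (0.71, 0.0525) had differences near these and were not called.

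In the small subunit, Rps6, the best-known substrate of the S6 kinases of the TOR pathway, read 9.42 and 9.95 in control mucosa and 10.97 and 11.30 in control tumours. It rose by 1.45 ± 0.33 (2.73-fold, adjusted p = 0.0161), with no overlap. Rps25, which many viral internal ribosome entry sites need, rose by 1.12 ± 0.27, from 8.32 and 8.18 to 9.29 and 9.45. Rpsa, also known as the laminin receptor, rose by 1.04 ± 0.28 and Rps15, at the decoding side of the subunit, by 1.01 ± 0.24. Rps19, the gene most often mutated in Diamond-Blackfan anaemia, rose by 0.99 ± 0.27 (adjusted p = 0.0331), from 12.94 and 13.47 to 14.11 and 14.28. Rps7 and Rps4x rose by 0.79 and 0.77.

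Rps4l moved against the rest. Its signal was 12.19 and 12.10 in control mucosa, 11.43 and 11.63 in deficient mucosa, 10.73 and 10.95 in control tumours and 11.08 and 11.46 in deficient tumours. It was highest in control mucosa and lowest in control tumours, the mirror of the family, and fell by 1.30 ± 0.25 log2 between them (adjusted p = 0.00918). Its parent gene Rps4x read 13.90 and 14.16 in control mucosa and 14.70 and 14.89 in control tumours. Without Rps4l, 0 members were lower in limma, and the median was 0.73.

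**Figure D2:**
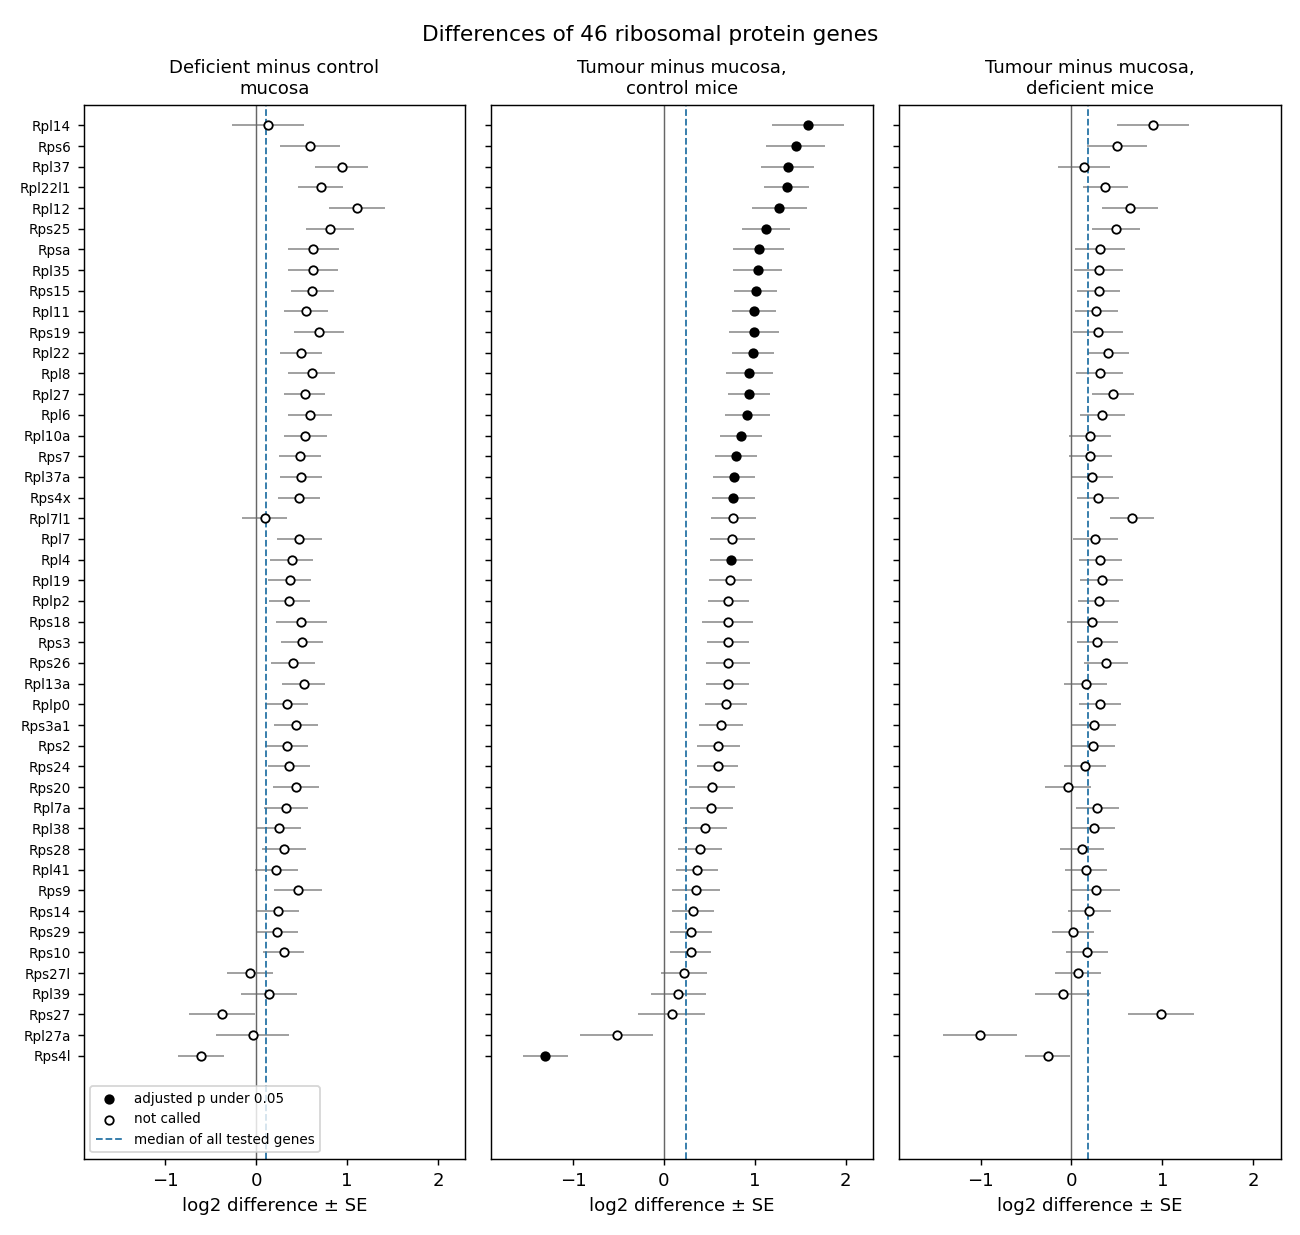
Log2 difference (x axis, with its standard error as a bar) of each tested member (y axis, ordered by the middle panel) for deficient against control mucosa, and for tumour against mucosa in control and in deficient mice, 2 arrays per group. Filled points had an adjusted p under 0.05 in limma, and the dashed line is the median of all tested genes: 20 members are filled on the right of 0 and 1 on the left in the middle panel, and 0 in the outer panels.

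Many of these calls were lost when 1 array was left out. Such a fit also has less information on the spread, so the counts do not show that a particular array decided a call. Without the first control mucosa array 1 member was called higher in control tumours, without the second 7, and without either control tumour array 2. With each deficient array left out the count was 16. Rpl22l1 was called in all 18 alternative settings tried, with an adjusted p of at most 0.0481, and Rps4l in 16 of 18, with the call lost without the first control mucosa array (0.0505) or the first control tumour array (0.0533). Without the array of high Gapdh ratio, the second of control tumours, the 2 calls were Rpl12 and Rpl22l1. The median over members was 0.63 to 0.83 in these 8 fits.

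Other markers moved with the same samples. Of all tested genes, 21.2% were called higher in control tumours and 7.64% lower. All 5 fibroblast markers were called higher in control tumours, with summed linear signals of 1901 to 2149 in control mucosa, 3838 to 5507 in deficient mucosa, 25568 to 27834 in control tumours and 18724 to 19693 in deficient tumours. Of 5 tested proliferation markers 4 were called higher, with sums of 7677 to 9115, 12295 to 12300, 17953 to 22628 and 20544 to 22058 in the same order. Of 6 markers of Wnt activity 5 were called higher, with sums of 1341 to 1393, 2311 to 3485, 7510 to 10334 and 7250 to 13746. All 5 smooth muscle markers were called higher, with sums of 771 to 902, 1501 to 2089, 6256 to 11256 and 5054 to 8840. The sums of fibroblast, smooth muscle, proliferation and Wnt markers all ran in the order of the ribosomal protein median, with deficient mucosa between control mucosa and tumours. Of 4 endothelial markers 2 were called higher, with sums of 323 to 336, 764 to 1119, 912 to 1458 and 1137 to 2430. Limma also called 2 of 4 T cell and 2 of 6 enterocyte markers lower. Of 8 epithelial markers 1 was called higher, a smaller share than the 21.2% of all tested genes. None of the 5 macrophage, 4 B and plasma cell or 2 exocrine pancreas markers tested was called. The part of these cells in the ribosomal protein result was not tested.

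Deficient mucosa, set against control mucosa, addresses the effect of HAI-1 loss outside tumours. It shares the control mucosa arrays with the comparison above. Limma called 0 of 46 members (0.899% of all tested genes were called higher and 0.152% lower), and 9 members had an unadjusted p under 0.05, as had 2295 of the 13119 genes. The median member difference was 0.44 log2, or 1.36-fold, against 0.11 over all tested genes, and 42 of 46 were above 0 (59.4% of all tested genes). In 39 members both deficient arrays lay above both control arrays (30.9%), in Rps4l and Rps27 both lay below (17.3%), and in Rpl7l1, Rpl14, Rpl27a, Rps6 and Rps27l the groups overlapped.

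The member with the smallest p was Rpl12, with 7.62 and 7.42 in control and 8.81 and 8.44 in deficient mucosa. Its difference was 1.11 ± 0.30 (adjusted p = 0.119). Rpl37 read 10.60 and 10.64 against 11.24 and 11.88, a difference of 0.94 ± 0.29 (adjusted p = 0.155), and Rps25 read 8.32 and 8.18 against 8.81 and 9.32, a difference of 0.81 ± 0.27 (0.176). Below 0 were Rps4l (-0.61 ± 0.25), Rps27 (-0.38 ± 0.37), Rps27l (-0.07) and Rpl27a (-0.04). Within the arrays of low poly-A spike-in signal, the first of each group, the member median was 0.51 against 0.08 over all genes, and within those of high signal, the second of each, it was 0.34 against 0.16. In both, 42 of 46 members were above 0.

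Leaving out the first control mucosa array lowered the median member difference to 0.29, the lowest of the 8 such fits. Fibroblast sums were 3838 to 5507 in deficient against 1901 to 2149 in control mucosa, and proliferation sums 12295 to 12300 against 7677 to 9115, while limma called 0 markers of either list. Smooth muscle sums were 1501 to 2089 against 771 to 902 (0 of 5 called), endothelial sums 764 to 1119 against 323 to 336 (1 of 4) and Wnt sums 2311 to 3485 against 1341 to 1393 (1 of 6). Sums of T cell markers were lower, at 717 to 1179 against 2079 to 2540. Of all tested genes, 0.899% were called higher in this comparison and 0.152% lower. The part of these cells and markers in the ribosomal protein difference was not tested.

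Between deficient and control tumours, member differences lay on both sides of 0. Limma called 0 members and 0 genes in all (0.0%), with 0 members and 802 genes at an unadjusted p under 0.05. The median member difference was -0.02 log2 against -0.01 over all genes, and 17 of 46 were above 0 (49.4% of all tested genes). On the probe sets used, both deficient arrays lay above both controls in Rps4l, Rps9 and Rps10 (18.6% of all tested genes). They lay below in 8 members (19.4%), namely Rpl11, Rpl14, Rpl22l1, Rpl27a, Rpl37, Rps6, Rps7 and Rps20. Other probe sets did not all go the same way. Those of Rps9 differed by -0.37 and 0.40, those of Rps10 by -0.10 to 0.29 and those of Rps20 by -0.20 to 0.67. The smallest p above 0 was that of Rps4l (0.43 ± 0.25, adjusted p = 0.779) and below 0 that of Rpl14 (-0.56 ± 0.40, 0.784).

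The difference between the 2 effects of HAI-1 loss, in tumours minus in mucosa, was below 0 in 44 of 46 members, with a median of -0.47 log2 against -0.12 over all genes. Above 0 were Rps4l (1.04 ± 0.35, adjusted p = 0.467) and Rps27 (0.90 ± 0.52, 0.654), against 41.1% of all tested genes. Limma called 0 members and 0 genes (0.0%), with 3 members and 1211 genes at an unadjusted p under 0.05. The smallest adjusted p was 0.454, of Rpl37 (-1.22 ± 0.41). In 5 members both deficient arrays were higher than both controls in mucosa and lower in tumours (4.15% of all tested genes), and in Rps4l the reverse held (2.0%), 6 of 46 in all against 6.16%. No member was thus shown to respond differently to HAI-1 loss in the 2 tissues.

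In deficient mice, tumours set against deficient mucosa gave a median member difference of 0.28 log2 against 0.18 over all genes, with 42 of 46 above 0 (61.3% of all tested genes). Limma called 0 members (2.45% of all tested genes were higher and 1.75% lower), with 3 members and 3297 genes at an unadjusted p under 0.05. Both tumour arrays lay above both mucosa arrays in 36 members (36.6%) and below in Rpl27a (18.9%). Rpl7l1, a paralogue of Rpl7 found in ribosome precursors of the nucleolus, read 10.28 and 10.07 in deficient mucosa and 10.99 and 10.69 in deficient tumours (0.66 ± 0.24, adjusted p = 0.15). The other probe sets of Rpl7l1 differed by 0.03 and 0.52. Rps27, a small subunit protein with a zinc finger, read 7.31 and 7.40 against 8.83 and 7.86 (0.99 ± 0.37, adjusted p = 0.152), and Rpl14 read 7.63 and 8.42 against 9.39 and 8.45 (0.90 ± 0.40, 0.209). Rpl27a read 7.42 and 8.53 against 7.19 and 6.74 (-1.01 ± 0.40, adjusted p = 0.176). In each of these 4, the arrays of 1 of the groups were 0.31 to 1.11 log2 apart.

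Averaged over genotypes, tumours were higher than mucosa in 26 called members (25.7% of all tested genes) and lower in 1, Rps4l (10.1%), with a median of 0.51 against 0.20 and 44 of 46 above 0 (61.6% of all tested genes). All 4 tumour arrays lay above all 4 mucosa arrays in 31 members (23.4%), and below in 0 (9.9%). The largest were Rpl14 (1.24 ± 0.28), Rps6 (0.97 ± 0.23), Rpl12 (0.96 ± 0.21), Rpl22l1 (0.86 ± 0.17, adjusted p = 0.00841), Rps25 (0.80 ± 0.19) and Rpl37 (0.75 ± 0.20). A second probe set of Rps6, with a mean of 5.24 log2 close to the filter, had a difference of 0.15. Over the alternatives the Rps6 value went down to 0.562, and its call was kept in 14 of 17. Rpl7l1 was called here (0.71 ± 0.17, adjusted p = 0.0166), while its other probe sets were at 0.22 and 0.45. Leaving out any 1 array brought the count to between 6 and 15, median centring to 6 and testing without the filter to 9.

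Other bright genes of the same arrays give a second background. Of the genes with a mean signal of at least 13 log2, 36 were members and 451 were not. In control tumours against control mucosa the members' median was 0.71 and that of the others -0.05, and the groups did not overlap upward in 36 of 36 members and in 124 of 451 others (27.5%). In deficient against control mucosa the medians were 0.46 and 0.00, with 35 of 36 members and 79 of 451 others (17.5%) higher without overlap. Among members the difference in control tumours was 0.99 for the 6 between 13 and 14 log2 and 0.70 for the 30 above 14. The highest signal of any probe set was 15.2 to 15.5 log2 per array, and Rps29 (14.90 and 15.05 in control mucosa, 15.15 and 15.40 in control tumours) and Rpl38 (14.65 and 14.74 against 15.01 and 15.29), known for its part in translating Hox mRNAs, came close to it. On the first deficient tumour array the signal of Rps29, 15.21, was itself the highest. How far such signals still scale with RNA was not tested.

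Paralogues are given pair by pair. Rps27l, which p53 induces, read 13.84 and 13.93 in control mucosa, 13.94 and 13.70 in deficient mucosa, 14.00 and 14.23 in control tumours and 14.08 and 13.71 in deficient tumours. All 4 groups lay within 0.53 log2 and the largest difference was 0.23 ± 0.25, in control tumours (adjusted p = 0.54). Rps27 read 7.48 and 7.99, 7.31 and 7.40, 7.66 and 7.98, and 8.83 and 7.86 in the same order, and was not called in any comparison. On the probe sets used, Rpl7l1 in deficient mucosa was 0.09 ± 0.24 from control and Rpl7 0.47 ± 0.25, but neither was called and their difference was not tested. The other probe sets of Rpl7l1 were at 0.19 and 0.35 there, and those of Rpl7 at 0.55 and 0.66. Rpl39, at the peptide tunnel, read 8.46 and 8.30 in control mucosa and 8.37 and 8.70 in control tumours. Its testis paralogue Rpl39l stayed between 1.82 and 5.20, and Rpl3l, the heart and skeletal muscle form of Rpl3, between 1.70 and 5.67, both under the filter on average. Rps16, with 1 probe set of its own, was under it too (0.00 to 3.19). Because a signal depends on the probes as well, this does not show that Rps16 mRNA was absent.

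**Figure D3:**
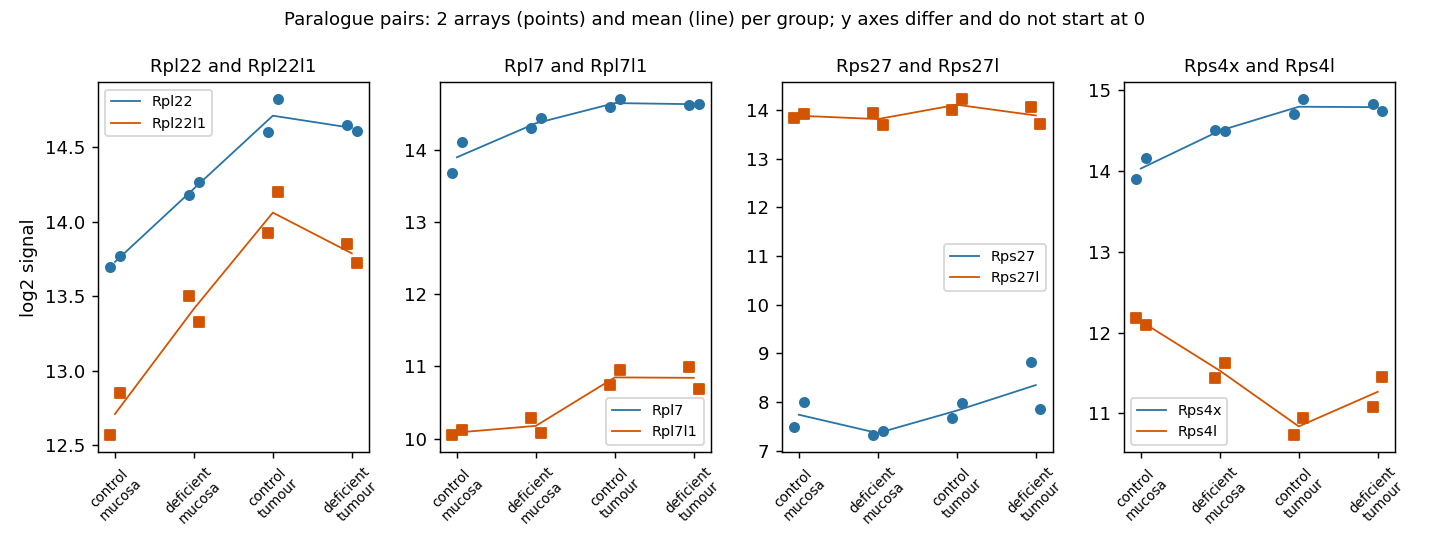
Log2 signal (y axis, which does not start at 0 and differs between panels) of 4 pairs of paralogues in the 4 groups (x axis). The height of 1 gene's probe set against another's has no meaning here. Points are the 2 arrays of a group and lines join group means. On the probe sets shown, Rpl22 and Rpl22l1 go up together from control mucosa to control tumours. Rps4l goes down from 12.19 and 12.10 to 10.73 and 10.95 while Rps4x goes up.

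The probe sets of a gene did not always give the same size. Rps10, which binds mRNA near the entry of its channel, had 6 probe sets with differences of 0.30 to 1.92 in control tumours, Rps24 had 6 with 0.12 to 1.59, and Rps3, also at the mRNA entry, had 2 with 0.70 and 1.84. In each of these 3 genes every probe set above the filter was higher than 0, and the brightest, used here, was not the one with the largest difference. Of all 96 single-gene probe sets of members above the filter, 94 were above 0 in control tumours, with a median of 0.75, and 89 in deficient mucosa, with a median of 0.49. A further 105 probe sets above the filter are assigned to several genes with a ribosomal protein among them, and were not used. They had medians of 0.76 in control tumours and 0.49 in deficient mucosa, with 103 of 105 above 0 in both. In RefSeq 85 protein-coding symbols fit the naming rule, of which 48 had a probe set of their own, 29 only shared ones and 8 none.

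The other machinery of translation is described from lists of known genes. Ribosome biogenesis factors, which process ribosomal RNA and assemble the subunits, had larger medians than the ribosomal proteins in control tumours (1.10 against 0.72) and in deficient mucosa (0.67 against 0.44). Of 73 tested, 46 were called higher in control tumours (21.2% of all tested genes were, with a median of 0.24) and 1 lower (7.64%). In deficient mucosa limma called 0, and 61 were higher without overlap (30.9% of all tested genes, with a median of 0.11). In deficient tumours 3 were called higher (2.45%). Nop56, of the box C/D particles that methylate ribosomal RNA, read 9.13 and 8.83 in control mucosa, 10.35 and 10.13 in deficient mucosa, 11.48 and 11.20 in control tumours and 11.33 and 11.79 in deficient tumours. These are 3 separate levels, with a rise of 2.36 ± 0.28 in control tumours (adjusted p = 0.00197) and of 1.32 ± 0.28 in deficient tumours (0.0473). Nhp2, of the particles that make pseudouridine, rose by 2.15 ± 0.26 and 1.39 ± 0.26, and Wdr75, of the small subunit processome, by 2.20 ± 0.28 in control tumours. Sbds, which helps release eIF6 from the large subunit, fell by 1.19 ± 0.34 (adjusted p = 0.0351). Nol6 was called higher in deficient tumours (1.49 ± 0.22), with values of 6.44 and 6.52 in deficient mucosa and 7.94 and 7.99 in deficient tumours, but with the mean of its probe sets this was 0.456 and not called. The deficient tumour calls of Nop56 and Nhp2 were kept in 4 and 5 of 18 alternatives.

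The share of all tested genes called higher in control tumours, 21.2%, is the background for the lists that follow. Of 18 genes of RNA polymerase I, which makes ribosomal RNA, 5 were called higher (median 0.60), near that share. Among them were the subunit Polr1e (2.13 ± 0.26), Cd3eap (1.88 ± 0.26) and Taf1d (1.43 ± 0.30). Polr1e was also called in deficient tumours (1.20 ± 0.26, adjusted p = 0.0486), a call kept in 4 of 18 alternatives. Of 28 initiation factors 4 were called higher, a smaller share than of all tested genes, although their median of 0.65 was above the 0.24 of all genes. They include Eif2b3, of the exchange factor of eIF2, at 1.47 ± 0.31 and Eif1ax, which takes part in start codon scanning, at 1.35 ± 0.23. Of 10 elongation factors and partners 2 were called, near the background, Eef1e1 (1.18 ± 0.25) and Naca (0.87 ± 0.25), which meets nascent chains at the ribosome (median 0.54). Fau, whose product is a fusion of a ubiquitin-like protein with the ribosomal protein eS30, was the 1 other component of the ribosome tested, and differed by 0.12 ± 0.25 in control tumours (adjusted p = 0.755).

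Mitochondrial ribosomal proteins build the separate ribosome of mitochondria. Of 76 tested, the median in deficient against control mucosa was -0.03, with 36 above 0. In control tumours it was 0.34 against 0.24 over all tested genes, with 10 called higher, a smaller share than the 21.2% of all genes, and 3 lower (7.64%). Mrpl33 (1.52 ± 0.32) and Mrpl52 (1.47 ± 0.26) rose, and Mrpl34 (-1.42 ± 0.39), Mrpl14 (-0.90 ± 0.28) and Mrps31 (-0.89 ± 0.24) fell. These 3 calls were kept in 13, 6 and 10 of 18 alternatives. With the mean of its probe sets Mrps31 was at -0.241 (adjusted p = 0.486), and without the second control tumour array Mrpl34 was at -0.833, neither of them called. Their median in deficient tumours was also 0.34, against 0.28 for the cytosolic family.

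Genes that regulate ribosome production moved in both directions. Myc read 7.96 and 9.29 in control mucosa, 9.38 and 9.67 in deficient mucosa, 10.91 and 10.70 in control tumours and 11.01 and 10.56 in deficient tumours. It was lowest in control mucosa, where the arrays were 1.33 log2 apart, and rose by 2.17 ± 0.43 in control tumours (adjusted p = 0.0103). Of 15 genes of the Myc network 7 were called higher there (21.2% of all tested genes) and 4 lower (7.64%), with Cad (1.77 ± 0.33), of pyrimidine synthesis, Mxd3 and Nme1 among the higher ones. Max (-2.61 ± 0.47), the partner of Myc, and Mxi1 (-1.45 ± 0.27) and Mxd1 (-1.53 ± 0.31), which compete with Myc for Max, fell. With quantile normalization Mxd3 was at 0.715 and not called, and with the mean of its probe sets Mxi1 was at -3.231. Of 22 genes of the TOR pathway 1 was called higher in control tumours, a smaller share than the 21.2% of all tested genes. Another 2 were called lower, near the 7.64% of all tested genes. The higher one was Eif4ebp1, the inhibitor of cap-dependent initiation that TOR inactivates, which read 9.84 and 9.89 in control mucosa and 11.17 to 11.74 in every other sample. It was the 1 gene of these lists called in deficient mucosa (1.72 ± 0.28, adjusted p = 0.0448), and that call was kept in 4 of 18 alternatives. Sesn1 (-1.58 ± 0.46) and Lamtor2 (-0.88 ± 0.24) fell in control tumours. Each of these calls was kept in 10 of 18 alternatives, and Lamtor2 was at -0.256 with the mean of its probe sets (adjusted p = 0.525). Of 12 p53 targets only Trp53inp1 (1.09 ± 0.28) was called higher, a smaller share than the 21.2% of all tested genes. Only Sesn1, which is in both lists, was called lower, near the 7.64%. Of 14 genes of ribosome rescue Abce1 (1.18 ± 0.26), which splits the subunits, and Eif2ak4 (1.58 ± 0.31), the kinase that senses uncharged tRNA, were called higher. This too is a smaller share than the 21.2% of all tested genes. Abce1 was at 0.757 with the mean of its probe sets and not called. Of the 30 genes of these lists that the naming rule took as called in control tumours, 10 were called in every alternative: Nop56, Nhp2, Wdr75, Polr1e, Cd3eap, Eif1ax, Eif4ebp1, Max, Mxi1 and Mrpl52. The fewest, 6 of 18, were those of Mrpl14 and Naca.

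**Figure D4:**
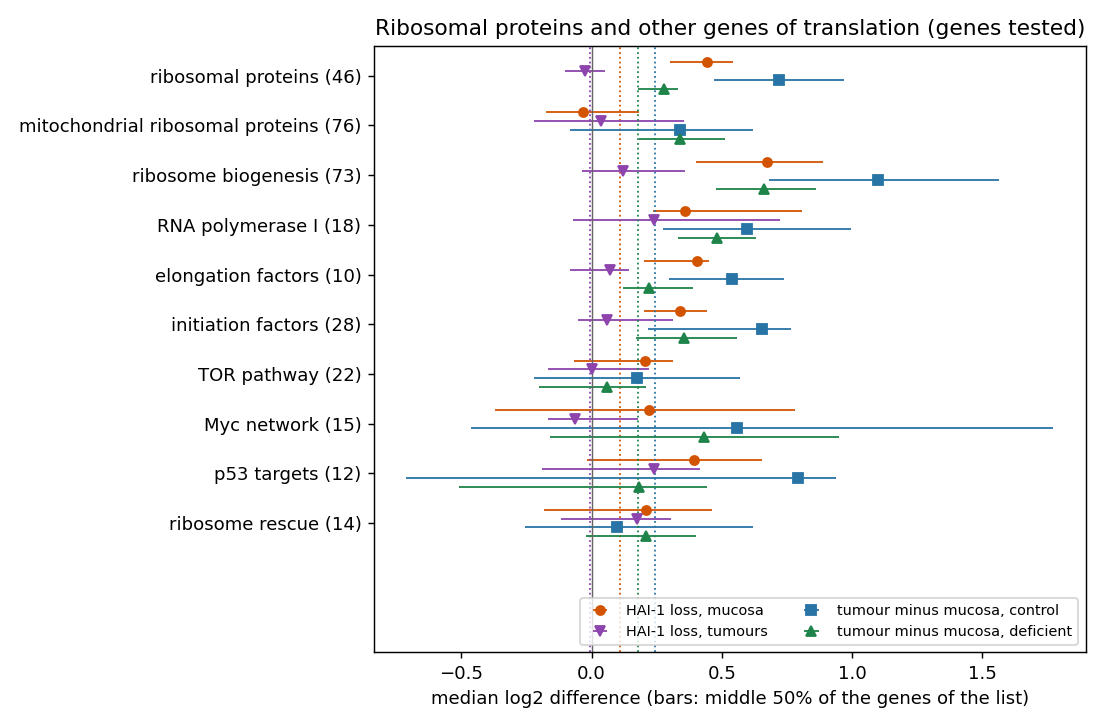
Median log2 difference (x axis) of ribosomal protein genes and of 9 other lists (y axis, tested genes in parentheses) in 4 comparisons, with bars for the middle 50% of the genes of a list and dotted lines for the median of all tested genes. Cytosolic ribosomal proteins and ribosome biogenesis factors lie above the median of all genes in deficient mucosa (0.44 and 0.67 against 0.11), and mitochondrial ribosomal proteins do not (-0.03).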

How the data were processed

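The 8 arrays were analysed as deposited: per the submitters' processing notes, the authors used MAS5 and RMA, whose versions and roles no source used here gives; the deposited values are log2 signals per probe set of the MAS5 kind, with no quantile normalization. Of 45101 probe sets, 34958 carried 1 gene. Probe sets with a mean under the 40th percentile (5.20 log2) were left out, the brightest single-gene probe set was kept per gene, and 13119 genes were tested. A mean per group was fitted with limma 3.58.1 in R 4.3.3 (4 residual and 3.52 prior degrees of freedom), with 6 contrasts, two-sided tests and Benjamini-Hochberg adjustment over all genes in each contrast. The script was tested on simulated data. Figures were drawn with python 3.11.15 and matplotlib 3.10.9.

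Members and lists were chosen with earlier results of these data known. Named members are, per contrast, up to 10 called in each direction by size, otherwise the 3 of smallest p, with all paralogue pairs, the highest and lowest signals, the 3 smallest interaction p and the 3 with the most unequal probe sets. Of other lists, up to 3 called genes per direction, or the 1 of smallest p, were eligible. Marker lists covered epithelium, enterocytes, Wnt activity, proliferation, B and plasma cells, T cells, macrophages, fibroblasts, smooth muscle, endothelium and exocrine pancreas. No label says whether replicate numbers pair the samples, and the main fit held no pairing. Deviations of same-numbered arrays correlated across genes at r = -0.138 to 0.220. With 1 such deviation per group this cannot exclude shared mice or a shared batch. Poly-A spike-in signal was high on the second array of every group but control tumours. Alternatives were other normalizations, filters, probe set choices, variance models and samples in the fit, a replicate block, a spike-in term and each array left out.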

Additional observations from a re-analysis of the deposited data

Results flagged for a closer look

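In 6 members the arrays of deficient and control samples did not overlap in either tissue and the difference had opposite signs in mucosa and in tumours, as in 6.16% of all tested genes. The effect in tumours minus that in mucosa was -1.22 log2 for Rpl37 (limma adjusted p = 0.454), -0.98 for Rpl22l1 (0.484), -0.72 for Rpl11 (0.583), -0.58 for Rps7 (0.645) and -0.57 for Rps20 (0.681). These 5 were higher in deficient mucosa and lower in deficient tumours (4.15% of all tested genes). For Rps4l it was 1.04 (0.467), lower in deficient mucosa and higher in deficient tumours (2.0%). The interaction test called 0 of these, and each group has 2 arrays. For Rps20 the change of sign depended on the probe set. Its other probe sets were at -0.20, 0.22 and 0.67 in deficient against control tumours.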

How the results depend on the processing

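Median centring of the arrays lowered the all-gene median from 0.24 to 0.12 in control tumours and from 0.11 to -0.08 in deficient mucosa, and the member medians to 0.595 and 0.253 (-0.172 for HAI-1 loss in tumours). It shifts all genes of an array alike, so member medians minus all-gene medians are 0.48 and 0.33 with or without it. Counts of members called higher fell to 6 in control tumours and 6 averaged over genotypes. Without the filter these counts were 5 and 9. In control tumours a mean-variance trend gave 33 and a fit of the compared groups alone 11. Averaged over genotypes, the 60th percentile filter gave 2 members lower. Without x and s probe sets, 1 member was called higher in deficient tumours. The alternatives without Rps4l and with probe sets of at least 12 log2, both chosen after seeing the data, gave 0 members lower in control tumours and 0 averaged. The replicate block, for numbers not known to pair the samples, gave 17 members higher in control tumours and 17 averaged over genotypes, and with crossed numbers 0 in deficient against control tumours. With 1 array left out, members called higher were 1 to 16 in control tumours and 6 to 15 averaged, and members called lower 0 to 1 and 1 to 2. The median then ranged from 0.293 to 0.532 in deficient mucosa and from -0.542 to -0.336 for the interaction. Both extremes came from fits without a control mucosa array. None of these settings called a member for HAI-1 loss in either tissue or for the interaction. Directions of uncalled genes reversed in 5 cases, whose cause was not tested. Fau in deficient mucosa was -0.041 with median centring, and Nol6 was 0.369 with the mean of its probe sets. With 1 array left out, Rpl39 in deficient tumours ran from -0.474 to 0.278, Rps27l in deficient mucosa from -0.189 to 0.051 and Znrd1 there from -0.612 to 0.059. With 2 arrays per group, leaving 1 out assumes that the lone array varies like those of the other groups.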
